A study of Mus musculus with 5 samples.

Results

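The agouti gene and 9 genes of the pigment cell were followed in ear skin of mice with and without Cd1d, the lipid-presenting molecule that natural killer T cells recognise. The 10 genes are a (nonagouti), Mc1r, Tyr, Tyrp1, Dct, Pmel, Mlana, Mitf, Slc45a2 and Oca2, taken by their symbols from a table of 27179 genes. The set was selected on the read counts of a, which were higher without Cd1d in these libraries, so the values of a are given as a description, with no test. The control group has 3 libraries, whose titles give the Cd1d genotype as +/- while their genotype field says WT. The knockout (KO) group has 2 libraries, titled Cd1d -/-. All 5 come from skin of B6 mice, and the labels name no other allele or treatment, no age, and no statement of whether each library is a separate animal. The p-values below therefore measure the spread between these libraries, which may be technical.

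In skin, melanocytes make melanin inside melanosomes. The receptor Mc1r drives black-brown eumelanin when it is bound by melanocortin peptides, and the agouti protein, secreted by dermal papilla cells of the hair follicle, blocks that signal and shifts the cell toward yellow pheomelanin. C57BL/6 mice, the strain usually meant by B6, carry the recessive nonagouti allele and have black coats. Mitf is the transcription factor that switches on the pigment enzymes through a sequence called the M-box, which holds the letters CATGTG.

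Promoter windows are shown here for the ligand, the receptor and the 3 enzymes, because they form the line from agouti through its receptor to melanin synthesis. Each runs from 250 bases before the annotated start to 50 bases from it, 5′ to 3′ on the strand of the gene, from RefSeq on GRCm38.p6. Capitals mark CATGTG, or CACATG where it lies on the opposite strand.
a (chr2:155013320-155013619, plus strand): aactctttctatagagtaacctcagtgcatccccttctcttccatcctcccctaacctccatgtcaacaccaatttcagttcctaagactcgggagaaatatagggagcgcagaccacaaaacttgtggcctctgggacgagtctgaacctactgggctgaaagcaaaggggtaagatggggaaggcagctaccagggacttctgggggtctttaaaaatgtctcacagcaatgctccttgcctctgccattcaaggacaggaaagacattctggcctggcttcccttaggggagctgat
Mc1r (chr8:123406832-123407131, plus strand): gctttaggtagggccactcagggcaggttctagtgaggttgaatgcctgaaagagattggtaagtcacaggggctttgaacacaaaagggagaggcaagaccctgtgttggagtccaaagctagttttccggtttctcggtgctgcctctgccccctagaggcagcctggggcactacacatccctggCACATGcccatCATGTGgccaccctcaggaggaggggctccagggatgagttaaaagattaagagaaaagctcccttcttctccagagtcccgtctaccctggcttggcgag
Tyr (chr7:87493463-87493762, minus strand): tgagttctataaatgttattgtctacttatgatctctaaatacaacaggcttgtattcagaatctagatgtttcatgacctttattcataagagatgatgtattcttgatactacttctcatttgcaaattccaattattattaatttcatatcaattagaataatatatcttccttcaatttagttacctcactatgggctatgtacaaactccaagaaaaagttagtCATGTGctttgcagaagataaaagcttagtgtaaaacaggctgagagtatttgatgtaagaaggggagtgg
Tyrp1 (chr4:80833963-80834262, plus strand): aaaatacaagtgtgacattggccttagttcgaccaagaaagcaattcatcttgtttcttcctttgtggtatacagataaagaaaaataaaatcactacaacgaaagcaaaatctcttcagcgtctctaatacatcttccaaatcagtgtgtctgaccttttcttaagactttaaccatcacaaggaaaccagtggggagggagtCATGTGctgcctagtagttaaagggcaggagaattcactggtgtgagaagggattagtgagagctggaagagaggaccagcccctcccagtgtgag
Dct (chr14:118052197-118052496, minus strand): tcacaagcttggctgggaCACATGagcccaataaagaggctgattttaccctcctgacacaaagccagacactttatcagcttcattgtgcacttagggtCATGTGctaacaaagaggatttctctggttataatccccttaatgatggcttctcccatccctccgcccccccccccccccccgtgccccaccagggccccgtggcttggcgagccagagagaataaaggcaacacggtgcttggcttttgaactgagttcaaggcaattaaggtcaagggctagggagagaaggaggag
The table of promoters held 9 windows for 7 of the 10 genes, 3 of them for Mitf. The longer form TCATGTG, which contains CATGTG, was searched on both strands. It was present in 4 of the 9 windows, those of Mc1r, Tyr, Tyrp1 and Dct, against 3.77% of all 32851 windows. Its first base lay at -22 in Tyr, -47 in Tyrp1, -52 in Mc1r and -151 in Dct, counted from the annotated start, and Dct had a second match on the opposite strand at -232. CATGTG alone was in 14.2% of all windows and also in that of Oca2. Neither form was found in the window of a or in the 3 windows of Mitf, which says only that these letters are not in those bases. The window of a lies inside its RefSeq span, which begins at chr2:154950599. Any start of a nearer to that end was not searched.

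The libraries held 32353957 to 79160005 counted reads, so 1 read was worth 0.0126 to 0.0309 CPM, the depth-scaled read count used below (scaled here by the trimmed mean of M-values, TMM). Cd1d1 itself stood at 6.61, 9.87 and 5.52 CPM in the controls and at 1.19 and 1.12 CPM in the KO libraries, a log2 difference of -2.67 (SE 0.29, edgeR quasi-likelihood test, Benjamini-Hochberg adjusted p = 0.0152). At an adjusted p under 0.05, 657 of 17472 genes differed (3.76%), 474 of them higher in KO (2.71%) and 183 lower (1.05%). Scaling by library size alone, which moved the median of all genes from -0.02 to -0.17 on the log2 scale, turned that split to 268 higher and 974 lower. In KO replicate 1, 12 of 21 hair matrix and inner root sheath genes stood at least 2-fold beyond every control, against 1 in KO replicate 2. Over all 17472 genes the same count was 439 and 294.

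The ligand gene a was read 295, 228 and 173 times in the controls and 461 and 347 times in the KO libraries. Its level was 3.50, 2.97 and 5.25 CPM in control replicates 1, 2 and 3, and 9.03 and 8.10 CPM in KO replicates 1 and 2. Both KO libraries lay above every control, and control replicate 3, the shallowest library, lay nearest to them. The mean was 3.91 ± 1.19 CPM (SD, n = 3) in controls and 8.56 ± 0.66 CPM (SD, n = 2) in KO, a fitted difference of 1.15 on the log2 scale (SE 0.23), or 2.22-fold. The dermal papilla marker list, from the cells known to secrete agouti, had a summed level of 486 to 621 CPM in controls and of 482 and 474 CPM in the KO libraries. Its most abundant genes were Wif1, Sostdc1 and Vcan, and 0 of its 18 genes passed the edgeR test, against 3.76% of all genes tested.

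The table counts reads by Entrez gene number, and in the GENCODE annotation the number of a is carried by both a and Gm14226, a transcript of 3243 bases that lies within the span of a. The longest coding transcript of a itself has 731 bases. The RefSeq span of a is chr2:154950599-155051012 on GRCm38, and Raly and Eif2s2 lie 79.6 and 57.7 kb before it. In GENCODE, a also has longer models that overlap Raly on the same strand and Eif2s2 on the opposite strand. The deposited totals cannot show which of these transcripts the reads came from.

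**Figure D1:**
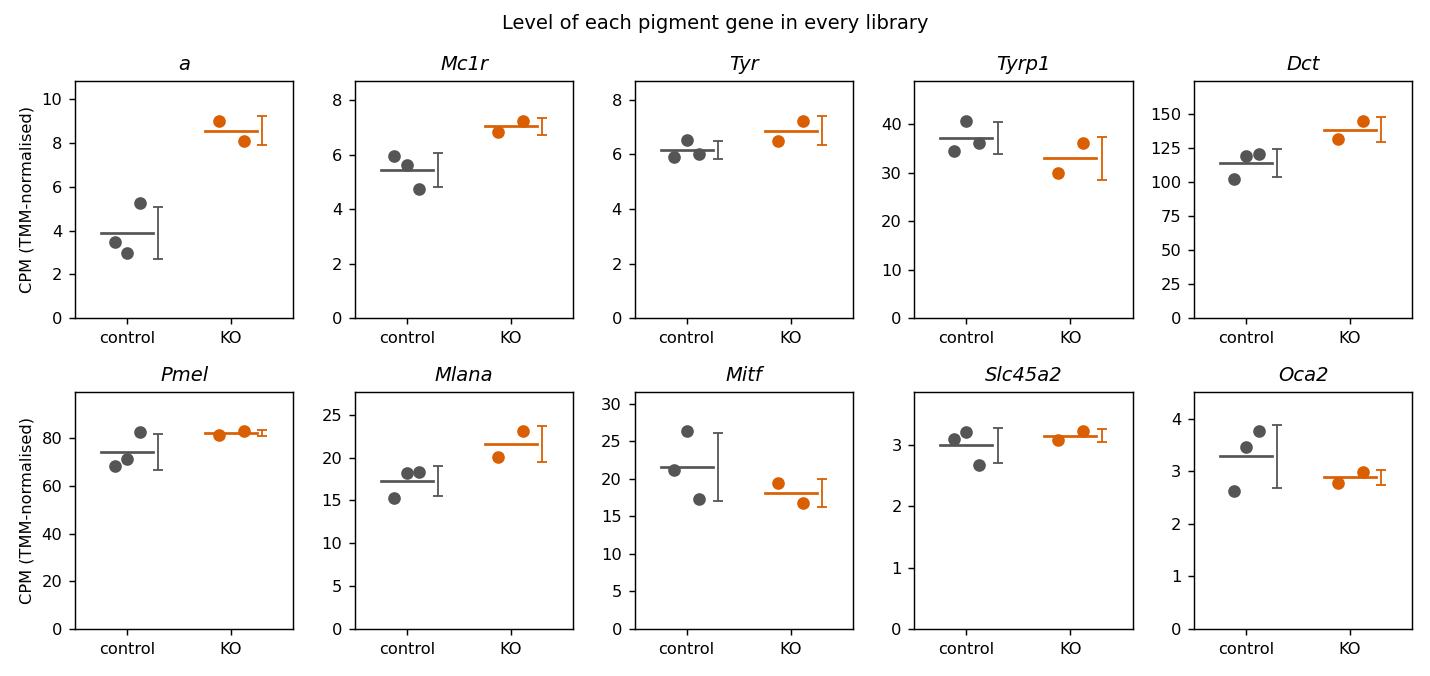
Level of each of the 10 genes in CPM (linear axis from 0, its own range in each panel) in the 3 control and 2 KO libraries, 1 point a library, with the group mean and SD. Both KO points lie above every control point for a, which was picked for its rise, and for Mc1r, Dct and Mlana. The groups overlap for the other 6. Over all genes tested, KO lay above every control for 19.9%, and the groups did not overlap in either direction for 39.9%.

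Mc1r, the melanocortin receptor that agouti blocks, had 5.94, 5.63 and 4.73 CPM in controls and 6.83 and 7.26 CPM in KO. The KO libraries lay above all controls, but the log2 difference of 0.37 (SE 0.17, 95% interval -0.02 to 0.75) did not pass the edgeR test (Benjamini-Hochberg adjusted p = 0.248). Gene Mc1r lies at chr8:123407082-123410744 and overlaps Gm20388, a long same-strand model that is not in the count table.

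Among the 3 enzymes of melanin synthesis, no difference passed the test. Tyrosinase, Tyr, whose step starts the pathway, had 5.91, 6.53 and 6.01 CPM in controls and 6.48 and 7.24 CPM in KO. Those groups overlapped, with a log2 difference of 0.16 (SE 0.16, 95% interval -0.20 to 0.52, edgeR adjusted p = 0.618). Tyrp1, which acts in eumelanin synthesis, had 34.3, 40.7 and 36.0 CPM in controls and 29.8 and 36.1 CPM in KO. KO replicate 1 was the lowest of the 5, and the log2 difference of -0.17 (SE 0.14, 95% interval -0.47 to 0.13) did not pass (edgeR adjusted p = 0.502). Dct, dopachrome tautomerase, had 102, 119 and 121 CPM in controls and 132 and 145 CPM in KO. Both KO libraries were above the controls, by 0.28 on the log2 scale (SE 0.12, 95% interval 0.01 to 0.55, edgeR adjusted p = 0.214).

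Neither of the melanosome proteins passed the test. Pmel, which forms the fibrils on which melanin is laid down, had 68.4, 71.4 and 82.6 CPM in controls and 81.3 and 83.0 CPM in KO. Its groups overlapped through control replicate 3, with a log2 difference of 0.15 (SE 0.12, 95% interval -0.12 to 0.42, edgeR adjusted p = 0.518). Pmel overlaps the opposite-strand genes Cdk2 and Dgka, whose log2 differences were -0.28 and -0.36, and whether reads were counted by strand is not stated in the notes at hand. Mlana, a small melanosome membrane protein, had 15.3, 18.2 and 18.3 CPM in controls and 20.1 and 23.1 CPM in KO. The KO values lay above the controls, by 0.33 on the log2 scale (SE 0.14, 95% interval 0.02 to 0.64, edgeR adjusted p = 0.209).

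Slc45a2, a melanosome membrane transporter, had 3.10, 3.21 and 2.67 CPM in controls and 3.07 and 3.22 CPM in KO. Its groups overlapped (log2 difference 0.07, SE 0.21, 95% interval -0.40 to 0.54, edgeR adjusted p = 0.89). Oca2, the transporter lost in pink-eyed dilution, had 2.62, 3.47 and 3.76 CPM in controls and 2.78 and 2.99 CPM in KO. These too overlapped (log2 difference -0.18, SE 0.23, 95% interval -0.70 to 0.34, edgeR adjusted p = 0.698).

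Mitf, the transcription factor of the lineage, had 21.2, 26.4 and 17.3 CPM in controls and 19.4 and 16.8 CPM in KO. The spread of the controls covered KO replicate 1, and the log2 difference was -0.26 (SE 0.18, 95% interval -0.65 to 0.13, edgeR adjusted p = 0.422). Mitf is known from cells other than melanocytes, and gene totals do not separate its promoters.

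Across the 9 genes other than a, all passed the filter on low counts and 0 passed the edgeR test, against 3.76% of all genes tested. At an unadjusted p under 0.05 there were 2, Dct and Mlana, against 21.9% of all genes. DESeq2 called 0 of the 9, and 12.7% of the 14423 genes to which it gave an adjusted p. The limma voom fit with quality weights called 2, Dct and Mlana, and 26.7% of all genes. Without control replicate 3, edgeR called Dct alone of the 9 (adjusted p = 0.049) and 18.8% of all genes. With the replicate number as a block it called 0 of the 9 and 11.7% of all genes. With the block and the length and GC offsets described below, it called 0 of the 9 and 0.635%. No KO library shares the number of control replicate 3, so under the block that library adds nothing to the fitted difference. KO lay above every control for 3 of the 9 and below for 0, and over all genes tested these shares were 19.9% and 20%, together 39.9%. The median log2 difference of the 9 was 0.15, beside -0.02 for all genes tested. Their summed level was 259, 294 and 292 CPM in controls and 302 and 325 CPM in KO, and scaling by library size alone turned the median deviation of KO replicate 1 from 0.08 to -0.08. In bulk skin, the number of pigment cells and the RNA in each cannot be told apart.

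**Figure D2:**
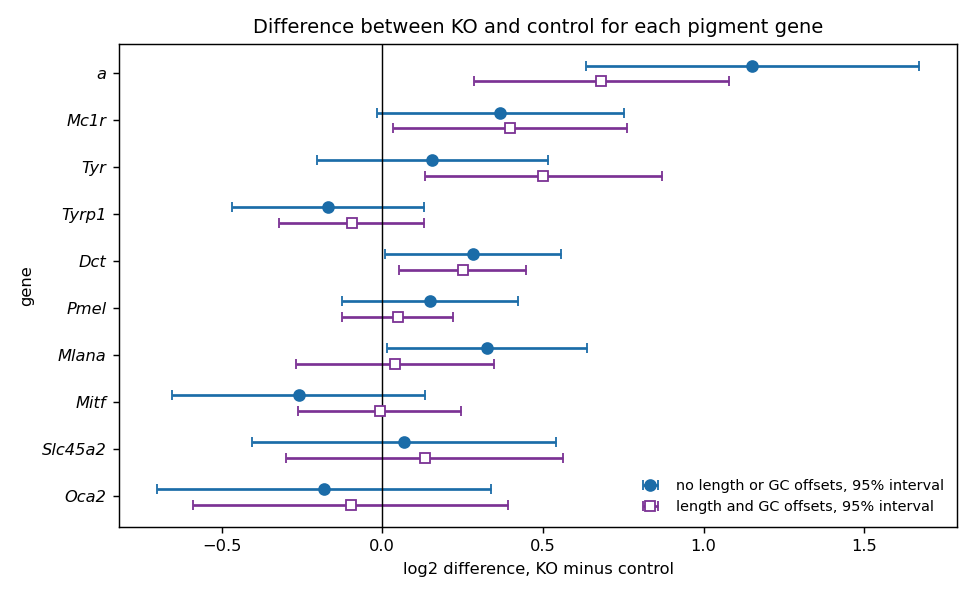
Log2 difference, KO minus control, of the 10 genes with 95% intervals, from the TMM-scaled fit and from the fit with length and GC offsets. Gene a stands at 1.15 without and 0.68 with the offsets, and the other 9 lie between -0.26 and 0.50 in either fit.

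Per kilobase of transcript, the members ranked in controls from Dct at 51.7 ± 4.63 CPM per kb (SD, n = 3) through Pmel at 34.8 ± 3.53, Mlana at 19.0 ± 1.90 and Tyrp1 at 13.6 ± 1.21 CPM per kb. These 4 were separated by more than their spread. Gene a at 5.34 ± 1.63 and Mitf at 4.43 ± 0.93 CPM per kb were not, and in KO a stood at 11.7 ± 0.90 CPM per kb. Mc1r followed at 1.49 ± 0.17 CPM per kb. Oca2, Tyr and Slc45a2, at 1.05 ± 0.19, 1.02 ± 0.06 and 1.0 ± 0.10 CPM per kb, did not differ beyond their spread. The order depends on the transcript taken for each gene. With the longest transcript under the same Entrez number, Dct (3459 bases) would stand at 32.9 ± 2.95 CPM per kb, no longer above Pmel, and a (3243 bases) at 1.2 ± 0.37 CPM per kb.

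Differences between the groups moved with transcript length. Spearman's rho of the log2 difference with length was -0.54 across 16776 genes of known length (genes are not replicates), and -0.0055 after offsets for length and GC content were fitted. Gene a is short at 731 bases. The 626 tested genes within 20% of that length had a median log2 difference of 0.44, with quartiles of 0.18 and 0.63. Of these, 40 (6.39%) had a larger difference than a. Because a was picked for its rise, its place among them is a description and no test. With the offsets the difference of a was 0.68 (SE 0.18), and with the length taken from the Entrez number, which gives that of Gm14226, it was 1.21.

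The same offsets moved the other members in both directions. Mlana, at 906 bases, went from 0.33 to 0.04 on the log2 scale, and 57.9% of genes near its length had a larger difference. Tyr, at 6042 bases, went from 0.16 to 0.50 (SE 0.17, edgeR adjusted p = 0.142), while genes near its length had a median of -0.22. Mitf went from -0.26 to -0.01, and Dct and Mc1r were at 0.25 and 0.40. With the offsets, 0 of the 9 passed, against 2.72% of all genes. What made long and short transcripts differ was not tested.

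**Figure D3:**
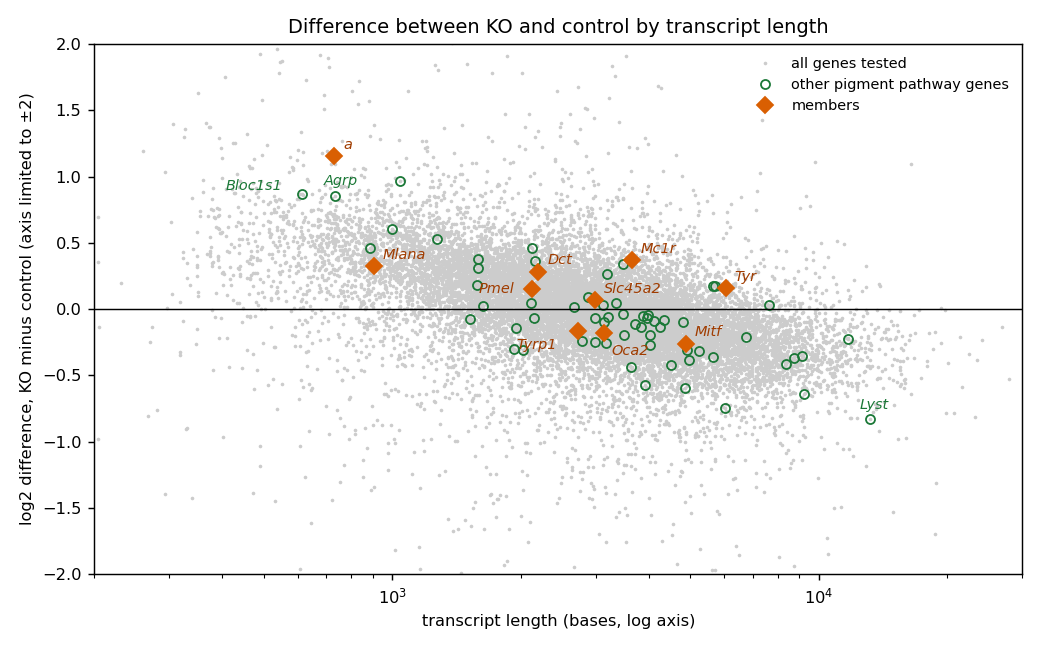
Log2 difference, KO minus control, against transcript length in bases (log axis). Shown are the 16776 tested genes of known length, the 10 members and the other pigment pathway genes. Both axes are limited, so genes with larger differences or extreme lengths fall outside. Short transcripts lie mostly above 0 and long ones below, and a lies at 731 bases and 1.15.

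The wider pathway outside the 10 genes was taken as 67 genes, 62 of which were tested. Of these, 2 were higher in KO (Agrp and Bloc1s1), 1 was lower (Lyst) and 59 did not pass, a share of 4.84% beside 3.76% of all genes. With the length and GC offsets 0 passed, and the median log2 difference was -0.09 without and -0.01 with them.

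Among 15 genes of the melanocortin switch, 10 were tested and 1 passed, higher in KO (10%, beside 3.76% of all genes tested). Agrp, the agouti-related peptide best known from the hypothalamus, had 2.73, 2.54 and 2.73 CPM in controls and 4.50 and 5.13 CPM in KO. That is 0.85 on the log2 scale (SE 0.20, edgeR adjusted p = 0.0445), and 0.36 (SE 0.19) with the offsets. Agrp is as short as a, at 734 bases. Among genes in the count table, it overlaps Ripor1, Ctcf and Mir1966 on the opposite strand and the noncoding Gm5914 on the same strand. Corin, a dermal papilla protease that limits agouti activity, had a log2 difference of -0.60 (edgeR adjusted p = 0.064), and Atrn, the attractin that agouti signalling needs, one of -0.37 (adjusted p = 0.129). Mrap and Pomc, the precursor of the melanocortin peptides, stood at 0.61 and 0.97 (edgeR adjusted p = 0.149 and 0.185). With the offsets these 4 log2 differences were -0.40 for Corin, -0.06 for Atrn, 0.21 for Mrap and 0.53 for Pomc. Pomc was scarce, at 0.84, 0.39 and 0.58 CPM in controls and 1.10 and 1.28 CPM in KO. Mc3r had 0 reads in all 5 libraries, which allows up to 0.0379 to 0.0927 CPM at 3 reads per library, for counting error only.

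Of 36 genes for building and moving melanosomes, 1 rose and 1 fell (5.56%, beside 3.76% of all genes tested). Bloc1s1, a subunit of the complex that sorts cargo to melanosomes and lysosomes, had 88.6, 93.5 and 101 CPM in controls and 178 and 166 CPM in KO. The rise was 0.87 on the log2 scale (SE 0.11, edgeR adjusted p = 0.0157), and 0.33 (SE 0.08) with the offsets. Bloc1s1 overlaps Rdh5 on the same strand. Lyst, the lysosomal trafficking regulator mutated in beige mice, had 14.99, 11.7 and 14.1 CPM in controls and 7.38 and 7.89 CPM in KO. It fell by 0.83 on the log2 scale (SE 0.16, edgeR adjusted p = 0.0258), with a value of -0.45 with the offsets. Bloc1s2 and the lysosomal protease Ctsd both had 0.46 (edgeR adjusted p = 0.0574 and 0.0717).

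None of 11 further melanocyte genes and none of 14 signals and factors of the lineage passed the edgeR test, against 3.76% of all genes tested. Their median log2 differences were -0.09 and -0.27, and 0.05 and -0.02 with the length and GC offsets. Mlph, which links melanosomes to their motor, had -0.42, the receptor Kit -0.32, Rab38 0.18 and Sox10 -0.24 (edgeR adjusted p = 0.246, 0.287, 0.383 and 0.52). Erbb3 had -0.75, Ednra -0.43, Creb1 -0.42 and Usf1 0.36 (edgeR adjusted p = 0.0876, 0.118, 0.184 and 0.105). With the offsets Creb1 stood at -0.02 and Kit at -0.11, while Sox10 and Erbb3 stood at -0.37 and -0.53. Several of these, Sox10 and Erbb3 among them, are also made by Schwann cells.

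**Figure D4:**
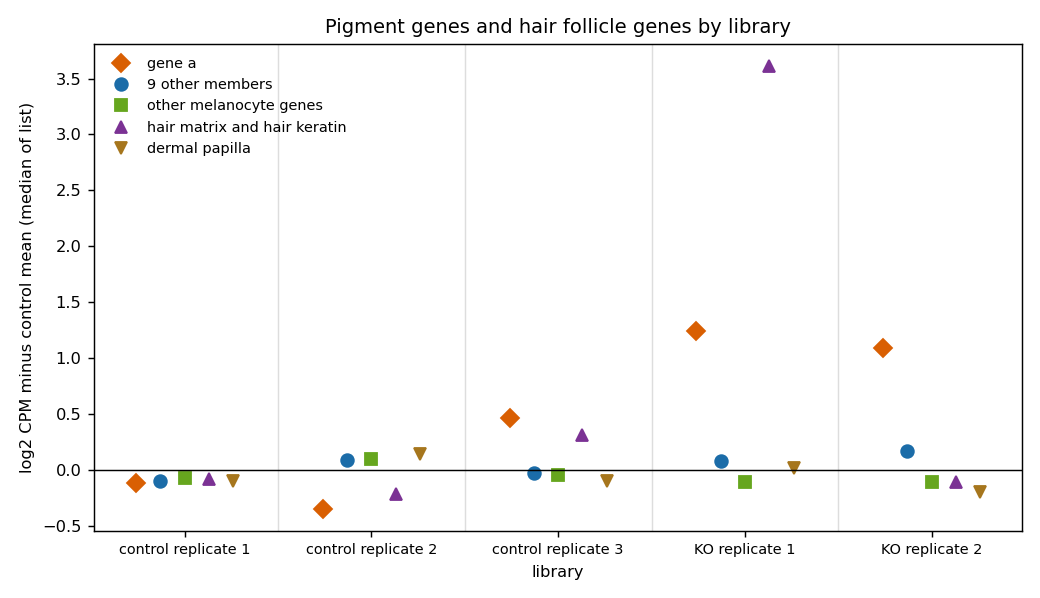
Log2 CPM minus the control mean of gene a, and the median of this for 4 gene lists, in each of the 5 libraries. The hair matrix list reaches 3.61 in KO replicate 1 and is -0.11 in KO replicate 2, while the median of the 9 pigment members stays between -0.10 and 0.17 in every library.

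Markers of other cells of the ear were read in the same libraries. Over all genes tested, 3.76% passed the edgeR test, and 2.72% with the length and GC offsets. The hair matrix list summed to 472 to 567 CPM in controls, 1253 CPM in KO replicate 1 and 475 CPM in KO replicate 2, and 0 of its 21 genes passed the edgeR test. Its most abundant genes on average were Gata3, Foxq1 and Ctsc, but the sum in KO replicate 1 came mainly from Krt71, Tchh, Krt27 and Krt25, named after their values were seen. These stood at 191, 167, 109 and 85.5 CPM there, beside control means of 2.85, 8.33, 2.40 and 1.23 CPM. Without KO replicate 1 the log2 difference of a was 1.07, and without KO replicate 2 it was 1.23. Because a was picked for its rise in these same libraries, both values are a description and no test. The muscle list, led by Acta1, Myh1 and Pvalb, moved with the groups, at 5227 to 5558 CPM in controls and 6898 and 7698 CPM in KO, with 4 of 10 genes higher and 1, Ttn, lower. With the length and GC offsets 2 of its genes were higher and 0 lower, and Ttn went from -0.59 to -0.17. The adipocyte list (Fabp4, Cfd and Adipoq) ran from 705 to 1102 CPM in controls and was 1318 and 1154 CPM in KO, with 1 of 10 higher, and 0 with the offsets. Keratinocyte genes (Lor, Krt10 and Krt5) summed to 36832 to 46386 CPM in controls and 54460 and 51135 CPM in KO, with 0 of 8 past the test. Fibroblast markers (Col3a1, Col1a1 and Col1a2) had 0 of 8 past it. The part of these cells in the values of a and of the pigment genes was not tested.

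The genes beside a on the chromosome were read as context. Raly, which overlaps the longest models of a, had a log2 difference of 0.40 (edgeR adjusted p = 0.0821), Eif2s2 0.28 (0.268) and Ahcy, 8.3 kb beyond a, 0.17 (0.436). Chmp4b, Rpl5-ps2, Itch and Dynlrb1 had 0.38, 0.54, -0.33 and 0.21, none of which passed. Of the 8 neighbours, Map1lc3a, an autophagy protein gene 225.4 kb away, passed at 0.65 (edgeR adjusted p = 0.043). With the length and GC offsets Map1lc3a did not pass, at 0.18 (edgeR adjusted p = 0.305), and Eif2s2, which overlaps models of a on the opposite strand, passed at 0.37 (edgeR adjusted p = 0.0251).

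**Figure D5:**
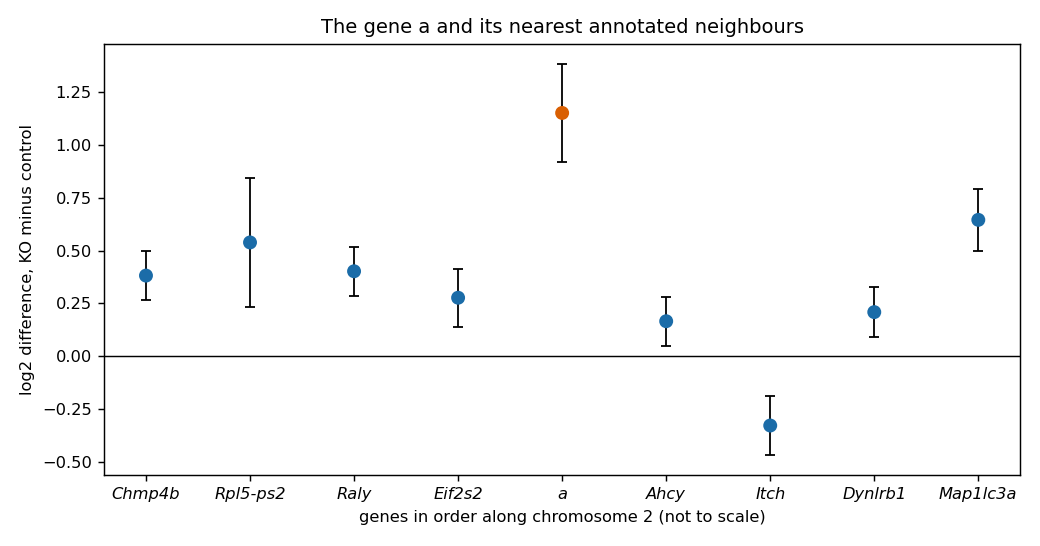
Log2 difference, KO minus control, of a and its 4 neighbours on either side, in chromosome order, with standard errors. Gene a stands at 1.15 and the 8 neighbours lie between -0.33 and 0.65.

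The 5 library values of 14636 genes, centred on the control mean, were set beside those of a and of Tyr. Predicted and clone-named genes and those without a symbol were passed over. The closest to a were then Tmem160, Lrrc10b and Camk2n2, at root mean square distances of 0.12, 0.14 and 0.15 on the log2 scale. Their own differences were 1.06, 1.01 and 0.94. The genes closest to Tyr were Msrb2, Slpi and Idh3g, at 0.0096, 0.013 and 0.019, with differences of 0.17, 0.15 and 0.16. Likeness over 5 libraries of 2 groups is a description only.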

How the data were processed

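RNA of ear skin was sequenced in 3 control and 2 KO libraries, grouped by their titles. The authors deposited raw integer counts by Entrez gene; per the submitters' processing notes the tools included FastQC, HISAT2 2.0.4 and DESeq2 1.16.1, with build GRCm38 (mm10). Which program counted the reads, whether by strand, and how reads common to several genes were treated is not stated there.

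From these counts, edgeR 4.0.16 in R 4.3.3 fitted the robust quasi-likelihood test after its expression filter and TMM scaling over all 17472 genes, calling genes at a Benjamini-Hochberg adjusted p under 0.05. Symbols matched 25275 of 27179 genes. DESeq2 1.42.0, limma 3.58.1 (voom) and length and GC offsets (smooth fits, mgcv 1.9.3) were alternatives. Length is that of the longest coding GENCODE transcript carrying the gene's own name; this mapping was chosen after seeing the data. Tested on simulated data of this comparison (17134 genes), the test recovered 76% of 50 genes changed 2-fold and 32% of 50 changed 1.5-fold, and 25 of its 179 calls were false. These simulated data held no trend with transcript length, unlike the libraries, so the false share there may differ.

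The members and gene lists were chosen with earlier results of these data known. Predicted and clone-named genes were passed over for the neighbours of a and for the genes most like a and Tyr. Named are all 10 members, every pathway gene past the threshold, the 4 smallest p-values of each pathway list, Pomc and Mc3r (chosen after their values were seen), the 3 most abundant markers of each other list (1 further list is not reported here), the 4 neighbours of a on either side, and the 3 genes most like a and Tyr.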

Additional observations from a re-analysis of the deposited data

How the results depend on the processing

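The log2 difference of a ran from 0.68 to 1.41 over 18 alternatives; its direction was fixed by the selection and these refits of the same counts do not test it. Over all genes, 657 passed; the count was 1242 with library size alone, 1036 with no count filter, 1834 with DESeq2, 4662 with limma voom and 6 with length offsets, and leaving out 1 library gave 0 (control replicate 1, with 2253 at an unadjusted p under 0.05) to 3277 (control replicate 3). Of the 9 members other than a, 0 passed, 2 with limma voom, and 0 to 1 when a library was left out, the 1 being Dct without control replicate 3, where 18.8% of all genes passed. Of the pathway genes outside the members 3 passed; the count was 7 with library size alone, 6 with no count filter, 9 with DESeq2, 22 with limma voom, 0 with length offsets, 0 with length and GC offsets and 1 with lengths by Entrez number, and leaving out 1 library gave 0 (without control replicate 1 or KO replicate 1) to 20 (control replicate 3). The cause of these shifts was not tested.

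Replicate numbers are shared by both groups, and the deviations of same-numbered libraries correlated at 0.016 and 0.064. With 2 KO libraries, their deviations mirror each other, so these values cannot show whether the numbers mark pairs. With the replicate block 2037 genes passed, 0 of the 9 members and 11 pathway genes. With the replicate block and the length and GC offsets these counts were 111, 0 and 0. Control replicate 3 has no KO library of its number, so in both blocked fits it adds nothing to the fitted difference.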
